A study of Mus musculus with 5 samples.

Results

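Strong distal H3K4me1 elements without H3K27 marks are H3K4me1 peaks of higher score, away from H3K4me3, on which neither H3K27 modification was called. An element belongs to this set when it is an H3K4me1 peak on chromosomes 1 to 19 with a score of 160 or more, no H3K4me3 peak within 1000 bp, no overlap with an H3K27ac or H3K27me3 peak, and its nearest H3K4me3 peak no more than 100 kb away. The rule found 9473 elements among 76772 H3K4me1 peaks (12.3%), and 41099 autosomal distal elements had no H3K27 mark at any score or distance. They are called strong unmarked elements here, where unmarked means only that neither list has a peak on them.

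The cells were EpiSC9, a mouse epiblast stem cell line, cultured on irradiated mouse embryonic fibroblasts in medium with 10 ng/ml of FGF2. Chromatin immunoprecipitation followed by sequencing used 5000000 crosslinked cells for each antibody, and the untreated line is the only group, with 1 library and 1 peak list for each of H3K4me1, H3K4me3, H3K27ac and H3K27me3. The title of the series sets these cells in a comparison of pluripotent states and their enhancers, but the lists analysed here hold the epiblast stem cells alone. Feeder chromatin could contribute to any peak, and the labelled cell type was not checked against marker genes, because the lists pair no peak with a gene.

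H3K4me1 is written mainly by the KMT2C and KMT2D methyltransferases at enhancers, often before an enhancer becomes active. Acetylation of H3K27 by the CBP and EP300 enzymes accompanies activity, and trimethylation of the same residue by the Polycomb complex PRC2 accompanies silencing. Distal elements with H3K4me1 and neither H3K27 modification are commonly described as primed, and in pluripotent cells many enhancers used at later stages are known to pass through such a state.

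Scores are the authors' values per peak and rank peaks within a list. With no replicate library there is no test for any difference below. Shares carry 95% Wilson intervals that cover counting over peaks only, and neighbouring elements share a locus and often the same nearest H3K4me3 peak, so these intervals are too narrow. The elements were chosen by their H3K4me1 score, their distance to H3K4me3 and the H3K27ac and H3K27me3 lists, so those values are descriptions.

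The strong unmarked elements were broad peaks of moderate score. Their median score was 239 (interquartile range 191 to 327, highest 1380) and their median width 2261 bp (1859 to 2844, range 803 to 14030). The weak unmarked elements, 25574 distal elements without H3K27 marks that scored under 160 at the same distances from H3K4me3, had a median width of 1221 bp. Strong acetylated elements, 5295 distal elements of score 160 or more with H3K27ac alone, were 2768 bp wide at the median and scored 334. A further 145 strong distal elements had H3K27me3 alone and 16 had both H3K27 marks.

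Nothing marked a break at the threshold. Unmarked elements scoring from 150 to 160 numbered 969, with a median width of 1720 bp, and those scoring from 160 to 170 numbered 878, with 1761.5 bp. The nearest element inside was on mm9 chromosome 11 at 5331181 to 5333013, with a score of 160.01, and the next ones inside were on chromosome 2 at 152192632 to 152195841 (160.02) and chromosome 4 at 94823077 to 94824495 (160.07). Just outside lay chromosome 19 at 36607907 to 36609993 (159.98), chromosome 4 at 133855036 to 133856904 (159.95) and chromosome 17 at 48461771 to 48463732 (159.94). The 6 peaks were between 1419 and 3210 bp wide, and the widths inside and outside overlapped.

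Lack of an H3K27 mark was the majority state of strong distal elements, but it became less frequent as H3K4me1 grew stronger. Of 14929 strong distal elements within 100 kb of H3K4me3, 63.5% (62.7 to 64.2) were unmarked. The share was 92.9% among elements scoring from 50 to 60 and 78.1% (76.8 to 79.4) from 160 to 200. It was 60.03% from 300 to 400 and 48.4% (46.2 to 50.5) from 400 to 600, where acetylated elements made up 50.6%. Above 600, 409 of 1437 elements were unmarked, a share of 28.5% (26.2 to 30.9), and 69.4% had H3K27ac alone. H3K27me3 alone stayed between 0.624% and 1.6% over all 11 score bins, so the fall in the unmarked state was taken up by acetylation.

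**Figure D1:**
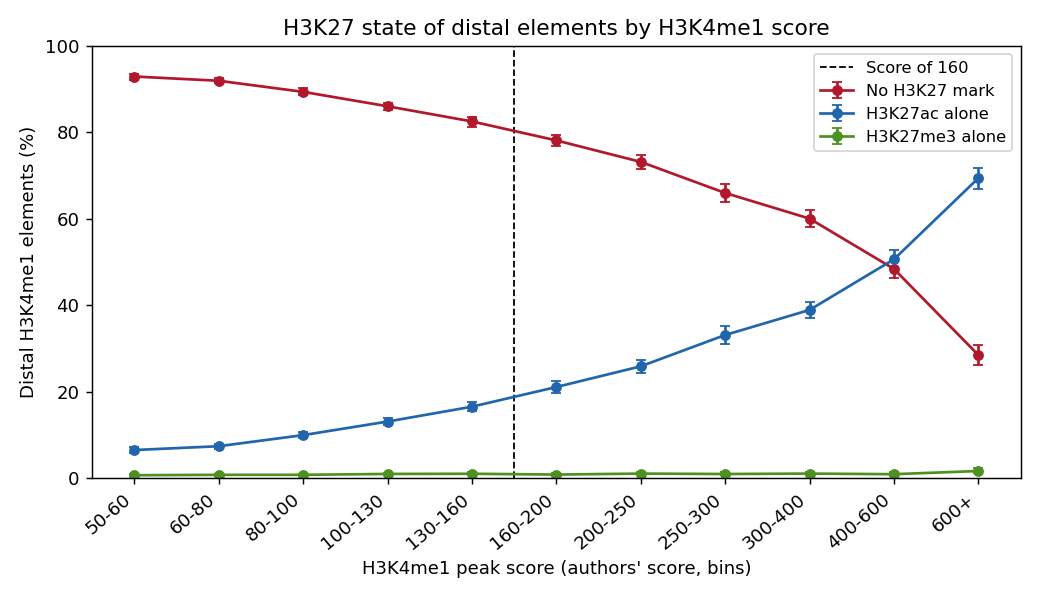
Share of autosomal distal H3K4me1 elements within 100 kb of H3K4me3 (y axis, percent) that had no H3K27 mark, H3K27ac alone or H3K27me3 alone, by bin of the authors' H3K4me1 score (x axis). Points are shares and bars 95% Wilson intervals, and to the right of the dashed line the unmarked share falls from 78.1% to 28.5%.

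At a matched score, unmarked and acetylated elements were nearly equal in width. From a score of 160 to 200 the median widths were 1845.5 bp (quartiles 1605 and 2130) for unmarked and 1905.5 bp (1655.5 and 2214) for acetylated elements. From 300 to 400 they were 2743 and 2755 bp, and from 400 to 600 they were 3348 and 3428 bp. Only the bin of 600 and above showed a wider gap, 4623 against 5074 bp, and there the scores within the bin were not matched. Over all scores from 160 upward the medians were 2261 against 2768 bp, at median scores of 239 against 334.

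A wide peak can meet more peaks of any kind. Each score bin was therefore also divided at its own median width, which was 1862 bp from 160 to 200 and 4918 bp at 600 and above, so width was not held fixed across bins. The unmarked share from 160 to 200 was 80.6% (78.8 to 82.4) in the narrower peaks and 75.6% (73.6 to 77.5) in the wider ones. From 300 to 400 these shares were 60.7% and 59.4%, with overlapping intervals. At 600 and above they were 34.1% (30.8 to 37.7) and 22.8% (19.8 to 26). In all 6 bins the wider peaks had the lower unmarked share. How much of the fall across scores goes with width was not tested.

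**Figure D2:**
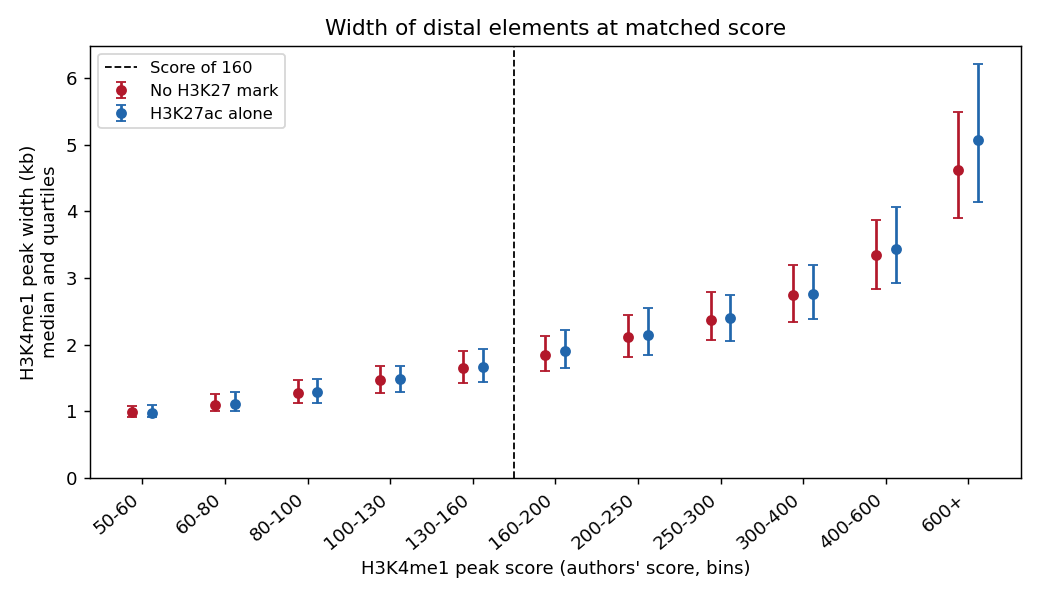
Width of distal H3K4me1 elements (y axis, kb) by bin of H3K4me1 score (x axis) for elements without H3K27 marks and with H3K27ac alone. Points are medians and bars the quartiles, which overlap in every bin.

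The 5 highest scores belonged to broad peaks in differing surroundings, and 3 of the 5 had another H3K4me1 peak within 1000 bp. The first was on chromosome 6 at 85180378 to 85186611, with a score of 1380 over 6234 bp. It had 0 H3K27ac peaks and 9 H3K27me3 peaks within 50 kb, with the nearest H3K27ac peak 92.2 kb away. The second, on chromosome 15 at 84127683 to 84134718 (score 1324, 7036 bp), had no peak of either H3K27 mark within 50 kb and lay 9.79 kb from a weak H3K4me3 peak of score 104.

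Of the next 3 by score, 2 were neighbours on chromosome 8. They lay at 122876194 to 122884391 (score 1320, 8198 bp) and 122896530 to 122906458 (score 1265, 9929 bp), and shared an acetylated H3K4me3 peak as the nearest one, 15.8 and 36.1 kb away. Within 50 kb the 8198 bp element had 3 H3K27ac and 12 H3K27me3 peaks, and the 9929 bp element had 3 and 1. The remaining one was on chromosome 6 at 128037831 to 128043539 (score 1296), with 8 H3K27ac peaks within 50 kb, the nearest at 8.43 kb. Distance to H3K27ac thus ranged from 8.43 to 104.3 kb among the 5 highest scores.

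Width and score did not pick the same elements at the top. The widest was on chromosome 4 at 125265179 to 125279208, with 14030 bp and a score of 680.3. The next 3 were on chromosome 11 at 117134277 to 117147779 (13503 bp, score 382.4), chromosome 9 at 63815595 to 63826872 (11278 bp, 787.4) and chromosome 1 at 39997309 to 40007839 (10531 bp, 977.3). The fifth was the 9929 bp element of chromosome 8 given above. Each of the 5 had between 2 and 11 H3K27ac peaks within 50 kb. Such a peak lay within 50 kb of 80.3% of all strong unmarked and 76.9% of weak unmarked elements, so this was common at any width. Over all 9473 elements Spearman's rho between score and width was 0.697, as a description of 1 library in which both come from the same reads.

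Acetylated chromatin was often near, though not on, the strong unmarked elements. The median distance to the nearest H3K27ac peak was 16.1 kb (interquartile range 6.06 to 40.2), and 3511 elements (37.1%, 36.1 to 38) had one within 10 kb. Within 500 bp the count was 129 (1.36%) and within 1000 bp 287 (3.03%). Among weak unmarked elements 34.9% (34.4 to 35.5) had H3K27ac within 10 kb. For strong acetylated elements, counting only H3K27ac peaks that did not touch the element itself, the share was 57.8% (56.5 to 59.2) and the median distance 7.17 kb.

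Part of this acetylation lay at or close to H3K4me3 peaks. Counting only the 18190 H3K27ac peaks with no H3K4me3 peak within 1000 bp, 24.8% (23.9 to 25.6) of strong unmarked elements had one within 10 kb, against 23.2% of weak unmarked and 45.9% (44.6 to 47.2) of strong acetylated elements. At the other extreme, 661 strong unmarked elements (6.98%) had no H3K27ac peak of any kind within 100 kb, against 8.73% of weak unmarked and 2.95% of strong acetylated elements. The 3 farthest all lay on chromosome 2, at 177869606 to 177871203, 177927494 to 177930056 and 178155943 to 178158538. Their nearest H3K27ac peaks were 1434, 1375 and 1146 kb away, while H3K27me3 peaks lay 7.71, 48.2 and 6.84 kb away, so the 3 share a region and are not separate examples.

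H3K27me3 peaks lay nearer to strong unmarked elements than to strong acetylated ones. The median distance was 89.2 kb (interquartile range 32.2 to 219), compared with 106 kb for weak unmarked and 135 kb for strong acetylated elements. Within 50 kb, 34.6% (33.6 to 35.5) of strong unmarked elements had an H3K27me3 peak, 30.2% of weak unmarked and 22.3% (21.2 to 23.4) of strong acetylated elements. The share among unmarked elements was 32.6% from a score of 160 to 200, 32.4% from 200 to 250 and 34.7% from 250 to 300. It was 38.8% from 300 to 400, 36.2% from 400 to 600 and 40.8% (36.2 to 45.7) at 600 and above. Acetylated elements of the same bins, in that order, had 19.9%, 19.1%, 21.3%, 23.5%, 23.5% and 25% (22.4 to 27.8). Unmarked elements had the higher share in each of the 6 bins from 160 upward.

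Few strong unmarked elements lay inside a Polycomb domain, where the rule left them only the gaps between H3K27me3 peaks. When H3K27me3 peaks were joined within 5 kb, 7 strong unmarked elements (0.0739%) lay in gaps of the 3262 domains of at least 2 peaks, and 3 in domains that covered 10 kb or more. Of weak unmarked elements, 22 (0.086%) lay in gaps of domains of at least 2 peaks. Among strong acetylated elements the count was 0 of 5295, with a Wilson upper limit of 0.0725% (3 counts would be 0.0567%). The lower limits were 0.0358% for strong unmarked and 0.0568% for weak unmarked elements, so the intervals overlapped. A difference between the sets was not tested on counts this small. H3K27ac peaks joined within 12500 bp gave 7920 clusters of at least 2 peaks. A place inside one was held by 339 strong unmarked elements (3.58%, 3.22 to 3.97) and by 4.42% of weak unmarked elements. Overlap with H3K27 peaks was excluded by the rule, which lowers all of these counts.

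**Figure D3:**
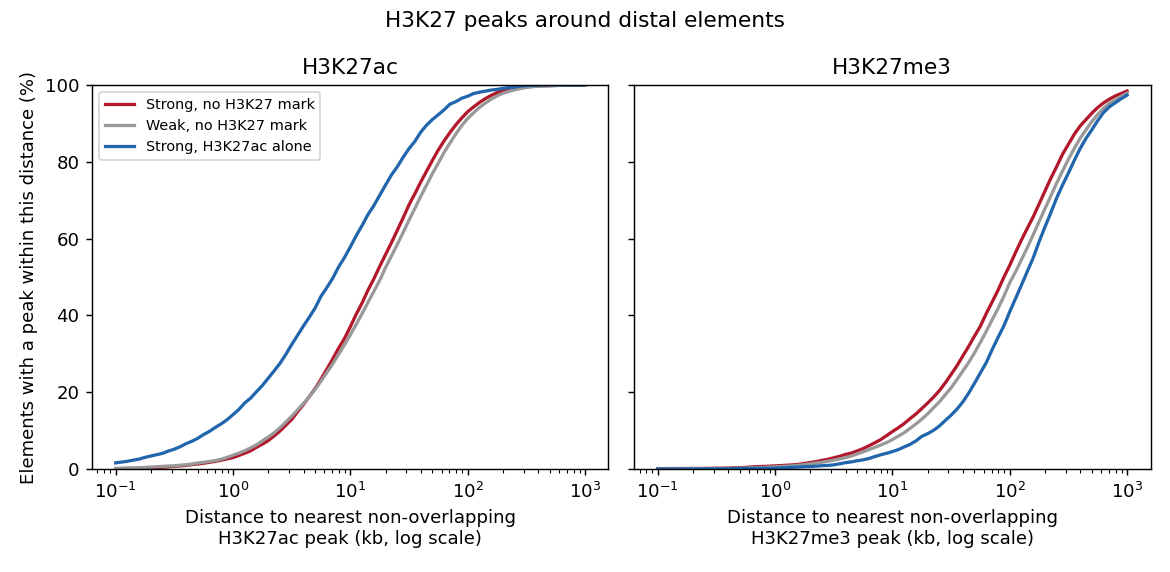
Share of elements (y axis, percent) with a non-overlapping H3K27ac peak (left) or H3K27me3 peak (right) within a given distance (x axis, kb, log scale), for strong unmarked, weak unmarked and strong acetylated distal elements. The curve for strong acetylated elements is highest for H3K27ac and lowest for H3K27me3, with 57.8% and 37.1% of strong acetylated and strong unmarked elements reached at 10 kb of H3K27ac.

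The nearest H3K4me3 peak, which stands in for a promoter, was less often acetylated beside strong unmarked elements than beside strong acetylated ones. It overlapped H3K27ac without H3K27me3 for 4220 of 9473 strong unmarked elements (44.5%, 43.5 to 45.6), against 62% (60.7 to 63.3) for strong acetylated and 45.7% (45.1 to 46.3) for weak unmarked elements. It had H3K27me3 without H3K27ac, the bivalent combination found at many developmental genes in pluripotent cells, for 13.8% (13.1 to 14.5), 6.67% (6.03 to 7.37) and 13.1% in the same order. For 40.4% of strong unmarked elements it had neither H3K27 mark, and for 1.21% it had both. States were read peak by peak, so a peak with neither mark can adjoin an acetylated one. How often it did was not counted.

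This difference held at every distance but narrowed with it. At 1 to 5 kb from H3K4me3, the acetylated state was found at 43.7% (41.3 to 46.2) of strong unmarked and 67.5% (64.2 to 70.6) of strong acetylated elements. At 50 to 100 kb the shares were 42.6% (40.1 to 45.1) and 53.7% (50.4 to 56.9). The bivalent state went from 12.2% to 14% over these distances for strong unmarked elements and from 4% to 10.2% for strong acetylated elements. Strong unmarked elements thus had almost level shares from 1 to 100 kb, while those of strong acetylated elements changed with distance. The small change was not particular to strong unmarked elements. Weak unmarked elements went from 47.5% to 43.7% for the acetylated state and from 11.4% to 14.3% for the bivalent state.

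The difference was also present at matched scores. In the 6 score bins from 160 upward the acetylated state was found at 43.3% to 46.9% of unmarked and 58.5% to 63.8% of acetylated elements, and the bivalent state at 12.2% to 15.8% and 5.92% to 7.24%. Many H3K4me3 peaks are weak and may not be promoters. With only the stronger 14472 H3K4me3 peaks, those of at least the median score, a setting chosen after the data were examined, the nearest peak was acetylated for 58.7% (57.8 to 59.7) of strong unmarked and 74.4% (73.2 to 75.5) of strong acetylated elements. It was bivalent for 20.6% (19.8 to 21.4) and 10.3% (9.47 to 11.1). Weak unmarked elements were close to the strong unmarked ones here, with 60.4% acetylated and 19.5% bivalent.

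**Figure D4:**
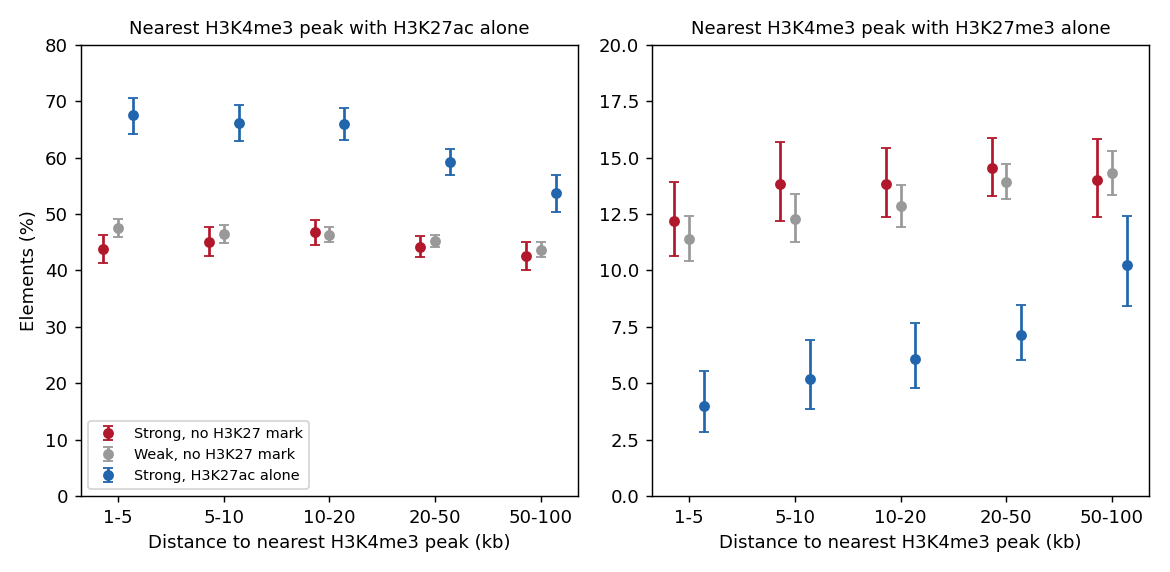
Share of elements (y axis, percent) whose nearest H3K4me3 peak had H3K27ac alone (left) or H3K27me3 alone (right), by distance to that peak (x axis, kb), for the 3 sets of distal elements. Points are shares and bars 95% Wilson intervals, and strong unmarked elements lie below strong acetylated elements on the left and above them on the right at all 5 distances.

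Seen from the H3K4me3 peak, the unmarked share of strong distal elements was lowest beside acetylated peaks. It was 56% (54.9 to 57.1) of the 7534 elements whose nearest H3K4me3 peak had H3K27ac alone, and 69.8% (68.6 to 71) of the 5484 nearest to a peak with neither mark. Beside the bivalent peaks it was 75.4% (73.4 to 77.4) of 1734, where 20.4% were acetylated. The strong unmarked elements of these classes were alike in size, with median scores of 238, 238 and 245 and median widths of 2277.5, 2234 and 2265 bp in that order. H3K27ac lay within 10 kb of 54% beside acetylated, 25.2% beside unmarked and 16.1% beside bivalent H3K4me3 peaks. The H3K27ac peak on an acetylated H3K4me3 peak was itself counted, so part of this difference follows from how the classes were defined. Distance to H3K4me3 itself had little relation to the unmarked state, which ranged from 62.8% to 64.4% over 5 distance bins from 1 to 100 kb.

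The 9473 elements were spread over 5843 nearest H3K4me3 peaks of 27970 on the autosomes. For 3788 of these peaks there was a single strong unmarked element, and 193 were nearest to 5 or more, which together took 1122 elements (11.8%). The most for 1 peak was 11, reached by 2 peaks on chromosome 5 that were picked after their values were seen. One at 119009399 to 119012301 had a score of 3100 and H3K27ac alone, and the other at 111637150 to 111637809 had a score of 321.6 and neither H3K27 mark.

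Along the chromosome, strong unmarked elements stood among other H3K4me1 peaks. Another H3K4me1 peak lay within 5 kb of 71.2% (70.3 to 72.1) and within 1000 bp of 30.6%. These shares were 75.3% and 37.8% for strong acetylated elements, and 61.3% and 24.1% for weak unmarked elements. The nearest other H3K4me1 peak was a weak unmarked element in 45.8% of cases, a strong unmarked element in 22.4%, a peak near H3K4me3 in 19.8% and an acetylated distal element in 11.5%. For weak unmarked elements the first of these shares was 45.4%, and for strong acetylated elements the last was 27.6% (26.4 to 28.8). When H3K4me1 peaks were joined within 1000 bp, 8438 of the strong unmarked elements (89.1%, 88.4 to 89.7) stood in a block with no H3K27 mark and no H3K4me3 peak within 1000 bp. Of all strong unmarked elements, 821 (8.67%) were pieces of a block that touched H3K27ac elsewhere. Weak unmarked elements had similar shares, 90.4% and 7.8%.

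Elements of like state lay near each other. Of the 5083 strong unmarked elements with another strong distal element within 12500 bp, the nearest such neighbour was unmarked for 69.6% (68.3 to 70.9) and acetylated for 29.2%. Of 3057 strong acetylated elements the nearest was unmarked for 46.7% (45 to 48.5) and acetylated for 52.9% (51.2 to 54.7). Without regard to neighbours, 63.5% of strong distal elements were unmarked.

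Another strong unmarked element lay within 12500 bp of 4017 (42.4%, 41.4 to 43.4), a share that was 34.9% among the 1895 elements of lowest score and 53.3% among the 1895 of highest score. The same share, counted within each set, was 56.7% for the more numerous weak unmarked elements and 36% (34.7 to 37.3) for the fewer strong acetylated elements. How far these shares go with the number of elements in a set was not tested. Joined at that distance, the elements formed 7043 groups. A single element made up 5456 of them (77.5%, against 67% of the groups of weak unmarked and 81.4% of those of strong acetylated elements), and 509 groups held 3 or more, with 1861 elements between them (19.6%).

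The 3 largest groups each spanned just under 60 kb and held 1 or 2 H3K27ac peaks, none of them on a strong unmarked element by the rule. The first, on chromosome 12 at 109446890 to 109506552, held 10 strong unmarked elements over 31.9 kb of a 59.7 kb span, with scores from 162.6 to 710.3 (median 380). It held 14 H3K4me1 peaks in all, 0 H3K4me3 peaks, 0 H3K27me3 peaks and 1 H3K27ac peak of 0.443 kb. Its nearest H3K4me3 peak, 4.74 kb away, scored 3216 over 2364 bp and had neither H3K27 mark. That peak ended 36.93 kb from the centre of the group. Close beyond it, a separate H3K4me3 peak at 37.12 to 38.76 kb did overlap H3K27ac.

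The second group, on chromosome 19 at 47476669 to 47536227, held 9 elements with scores from 220.5 to 548.1 and 2 H3K27ac peaks over 2.06 kb. Some of these elements nearly touched, such as those at 3.89 to 7.06 kb and 7.11 to 10.7 kb from the centre of the group. Its nearest H3K4me3 peak, 1.38 kb away, also had neither H3K27 mark, at a score of 3100. The third, on chromosome 11 at 113615348 to 113673733, held 9 elements with scores from 175.3 to 726.4, 2 H3K27ac peaks over 2.67 kb and 1 H3K4me3 peak of score 347 with H3K27ac. In all 3 the nearest H3K27me3 peak was outside the group, at 66.3, 58 and 132.9 kb.

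**Figure D5:**
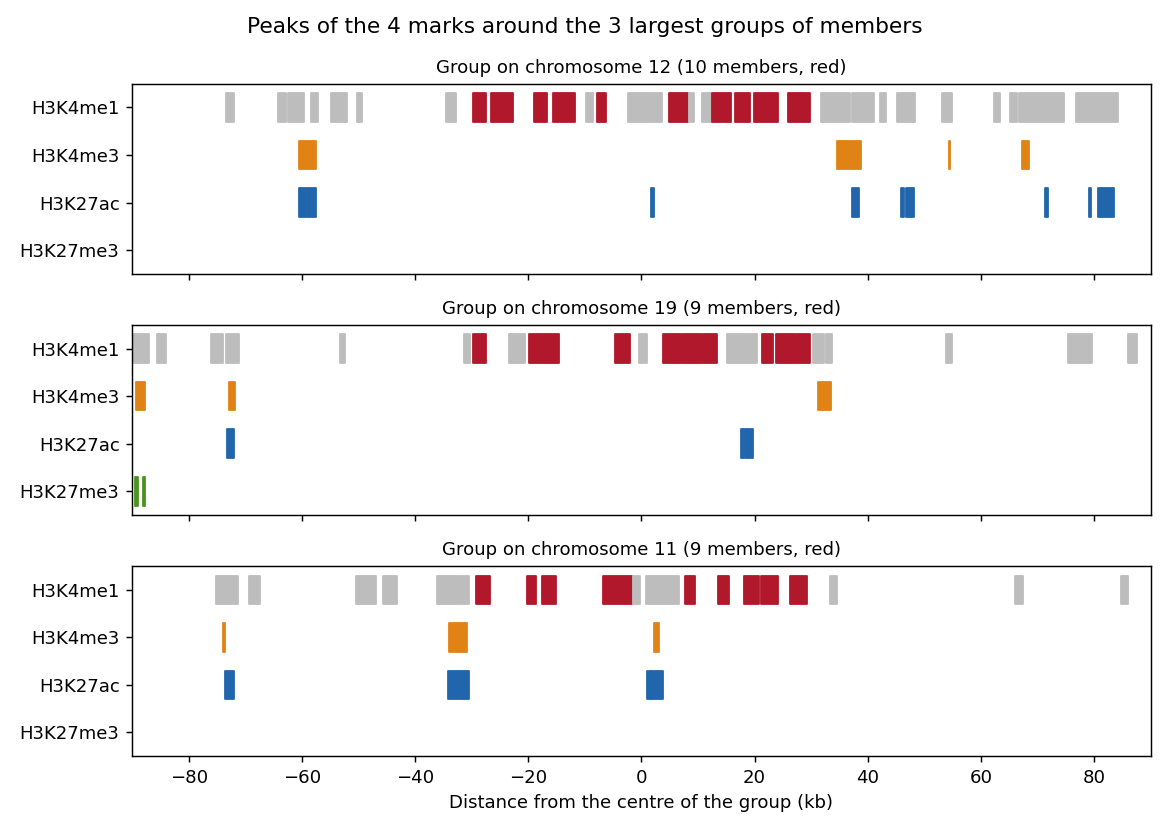
Peaks of the 4 marks around the 3 groups with the most strong unmarked elements, drawn to scale against distance from the centre of each group (x axis, kb). Red bars are strong unmarked elements and grey bars other H3K4me1 peaks, and the groups hold 10, 9 and 9 red bars with 1, 2 and 2 H3K27ac peaks inside their spans.

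All 19 autosomes held strong unmarked elements, at 2.1 per Mb on chromosome 3 to 7.22 per Mb on chromosome 11, with a median of 3.73. The unmarked share of strong distal elements varied far less. It ran from 55.7% (51.7 to 59.7) on chromosome 3 to 68% (65 to 70.8) on chromosome 5, with a median of 63.1%. Median widths by chromosome stayed between 2147 and 2403 bp.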

How the data were processed

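The values are peak intervals and 1 score per peak for each of 4 libraries, as the authors deposited them on mm9, per the labels. Bowtie 0.12.9, MACS 1.4 and Cufflinks are named in the submitters' processing notes, with no role or order. For the peak caller, neither its control sample, its threshold nor its handling of duplicates is stated (not given in the sources used here). The lowest score is 50, and read depth is unknown. A deeper or cleaner library for either H3K27 mark could therefore mark elements that are unmarked here. The 16975 H3K27me3 peaks were mostly narrow (405 bp at the median) and many scored near the lowest value (69.08 at the median). They covered 12.4 Mb, against 38.3 Mb for H3K27ac. Low shares and domain counts for H3K27me3 are therefore no evidence that the mark was absent. The input library was not used here.

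Overlap meant at least 1 bp shared, and distances are gaps between peak edges (1000 bp or more counted as distal). Positions are 1-based. Named regions are the 5 highest-scoring, the 5 widest and the 3 farthest from H3K27ac, the 3 largest groups joined within 12500 bp, and the 3 peaks on each side of the score threshold, leaving out chromosome 18. The reference tables at hand are on another build, so genes and sequences of the regions were not analysed here. Members and lists were chosen with earlier results of these data known. Python 3.11.15, numpy 2.4.6, scipy 1.17.1, pandas 2.3.3 and matplotlib 3.10.9 were used, and distances and overlaps were tested on simulated data. Score, overlap, distal distance, H3K27 strength and H3K4me3 distance were varied.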

Additional observations from a re-analysis of the deposited data

How the results depend on the processing

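The number of elements stayed within 1.5 times of 9473 under all 7 alternatives (6547 to 12811). With H3K27 peaks within 1000 bp also counted, 61% of strong distal elements were unmarked, 35.2% of those had H3K27ac within 10 kb and 41.3% had another member within 12500 bp. A minimum score of 130 gave 67.5% unmarked, 48% with another member and a median width of 2064 bp, and a minimum of 200 gave 58.5%, 36.5% and 2504 bp, with H3K27ac within 10 kb at 38.3%. With 5 kb as the distal limit, 32% had H3K27ac within 10 kb and 39.6% another member, and with no largest H3K4me3 distance these were 34.8% and 40.9%. Dropping H3K27 peaks below the median score of their list gave 80.1% unmarked, 25.9% with H3K27ac within 10 kb, 36.4% with an acetylated nearest H3K4me3 peak, 48.2% with another member and a width of 2312 bp. The part of library depth was not tested. Limiting H3K4me3 to peaks at or above its median score, chosen after the data were examined, raised the share with an acetylated nearest H3K4me3 peak from 44.5% to 58.7%. A shared length of 50% of the shorter peak gave 9519 elements and left the other 5 values within their intervals. No paired analysis was possible because each mark has 1 library and the result comes from no test.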

Other observations

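Elements that met every part of the rule except its limits of place were few beside the 9473. On the autosomes 1136 strong distal elements without H3K27 marks lay more than 100 kb from H3K4me3, at a median of 150.7 kb. They made up 65.6% (63.3 to 67.8) of the 1733 strong distal elements there, against 63.5% within 100 kb, with a median width of 2181.5 bp. H3K27ac lay within 10 kb of 15.9% of the farther elements, where H3K27ac close to an H3K4me3 peak is too distant to count. Within 100 kb that share was 37.1% over all H3K27ac peaks and 24.8% over those away from H3K4me3. The nearest H3K4me3 peak was bivalent for 16.3% of the farther elements, against 13.8% within 100 kb. On the X chromosome there were 7 such elements among 15 strong distal ones (46.7%, 24.8 to 69.9), too few for a comparison.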
